A study of Oryza sativa Indica Group with 9 samples.

Results

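Small RNA of rice leaves after 24 h at 45 °C was compared with that after 12 h, which asks which miRNAs moved late in the heat and which had reached their later level by 12 h. The plants were young seedlings at the stage of 3 leaves of HT54, an Indica breeding line described as heat tolerant, and leaf was the tissue taken. The groups were small RNA libraries of leaves heated for 0 h (unheated), 12 h and 24 h, with 2 libraries each, numbered replicates 1 and 3; a further library of each time point was judged unsuitable by the submitters and is not analysed here. Each library came from its own sample of seedlings, of a number that is not stated, so the replicates measure the spread between samples of 1 line. In whole leaf, fewer cells with a miRNA and less of it per cell cannot be told apart. No unheated leaves harvested at 12 h or 24 h are among the samples, so time in heat and time of harvest cannot be told apart. The members are the distinct mature sequences in the authors' list of miRNAs with at least 10 reads in at least 2 of the 6 libraries: 459 of 483 sequences passed, and 124 of 132 families, formed by summing the sequences that carry the same miR number. The 4 libraries of 12 h and 24 h are 4 of the 9 samples of the series, whose other samples are the 2 unheated small RNA libraries and 3 degradome libraries.

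A plant miRNA is cut from a hairpin precursor and loaded into an Argonaute protein, which it guides to a nearly complementary mRNA; the mRNA is then cleaved within the paired stretch or its translation is reduced. Many plant families are old, have several near-identical members, and act on transcription factors: miR396 on growth-regulating factors, which promote cell proliferation in young leaves, and miR160 on a class of auxin response factors that repress auxin-responsive genes. A degradome library sequences the 5′ ends of polyadenylated RNA fragments, so that a cleaved target appears as a pile of reads at the cleavage position.

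The sequences on which the results turn are shown here 5′ to 3′, as DNA letters from the authors' list, with bases 2 to 8, the seed, in capitals. The first set holds the 4 miR160 members, the family with the largest passing increase.
osa-miR160a-5p: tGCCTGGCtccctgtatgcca
osa-miR160e-5p: tGCCTGGCtccctgtatgccg
osa-miR160f-5p: tGCCTGGCtccctgaatgcca
bdi-miR160e-5p_L+1_1ss16AT: cTGCCTGGctccctgtatgcca
The first 3 share the seed GCCTGGC. Counted from the 5′ end, osa-miR160e-5p differs from osa-miR160a-5p by A21G and osa-miR160f-5p by T15A. The fourth starts 1 base earlier, which shifts its seed. The authors' list places the precursor of osa-miR160e-5p at chr7:2216768-2216874 on the minus strand and that of osa-miR160f-5p at chr8:24396882-24396981 on the plus strand. It gives osa-miR160a-5p 4 precursor positions, the first at chr6:28081020-28081158 on the plus strand. The sources used here do not name the genome build of these positions, so no gene annotation was laid over them.

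The second set holds 4 of the 10 miR396 members, a pair for each of 2 neighbouring 5′ ends.
osa-miR396e-5p: tCCACAGGctttcttgaactg
osa-miR396d: tCCACAGGctttcttgaacgg
osa-miR396c-5p: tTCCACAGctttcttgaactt
osa-miR396a-5p: tTCCACAGctttcttgaactg
The first pair shares the seed CCACAGG and differs by T20G (osa-miR396e-5p to osa-miR396d). The second pair shares the seed TCCACAG and differs by G21T (osa-miR396a-5p to osa-miR396c-5p). The precursor of osa-miR396c-5p is listed at chr2:34287873-34288013 on the minus strand, and the first of 2 for osa-miR396e-5p at chr2:35636546-35636721 on the minus strand. The last set serves the section on the earlier step, because its members passed at 12 h against 0 h, at 24 h against 0 h, or in the test of the later step against the earlier one.
osa-miR393a: tCCAAAGGgatcgcattgatc
osa-miR172a: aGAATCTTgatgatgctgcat
osa-miR528-3p: cCTGTGCTtgcctcttccatt
osa-miR166d-5p: gGAATGTTgtctggctcgagg
ppt-miR894_R+1: cGTTTCACgtcgggttcacca
gma-MIR6300-p3_1ss8AG: tAGTGGTGagtattcccgcc

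The libraries were of very unequal depth. The listed sequences summed to 147038 and 10314 reads in the 12 h libraries (replicates 1 and 3), 119293 and 227965 at 24 h, and 33623 and 102513 at 0 h. The shallow 12 h replicate 3 held no read for 61 of the 459 tested sequences, against 0 in 12 h replicate 1 and 3 and 0 in the 24 h libraries. A floor of 3 reads there stands for 195 CPM (counts per 1000000 listed reads), compared with 20.3 CPM in the other 12 h library. Across sequences (which are not independent), the log2(CPM + 1) values of 12 h replicate 1 correlated at 0.854 and 0.888 with the 24 h libraries and at 0.674 with 12 h replicate 3. Depth and this divergence move with the 12 h group, and their part in the results was not tested. Levels below are CPM of the listed reads after TMM scaling, with factors computed separately for sequences and for family sums (in 12 h replicate 1 they were 1.01 and 1.25), so the CPM of a member and of its family are on different scales and only shares of reads set them side by side. Each difference is a log2 difference of 24 h minus 12 h from an edgeR quasi-likelihood fit to all 6 libraries, with its SE.

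At the family level 2 of the 124 families passed an adjusted p of 0.05 between 12 h and 24 h, miR396 and miR160, and both rose; that is 1.61% of those tested. No family passed downwards in edgeR, in DESeq2 or in limma-voom. At an unadjusted p under 0.05 there were 9 families (7.26%), 4 higher at 24 h and 5 lower. At the level of single sequences osa-miR160a-5p alone passed, upwards (0.218% of 459), and 36 were under an unadjusted p of 0.05 (7.84%), 21 higher and 15 lower. DESeq2 called 1 sequence and limma-voom 0 (32 at an unadjusted p under 0.05). With a library left out, osa-miR160a-5p passed in 1 of 6 fits, that without 24 h replicate 3. Of the other sequences that passed in such fits, osa-miR396e-5p was higher and ath-miR8175_L+3_1ss5AT and rgl-miR5139_L+3 were lower without 12 h replicate 1, and osa-MIR171g-p3, osa-miR1320-3p and osa-miR1432-5p_R+1 were lower without 24 h replicate 1.

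**Figure D1:**
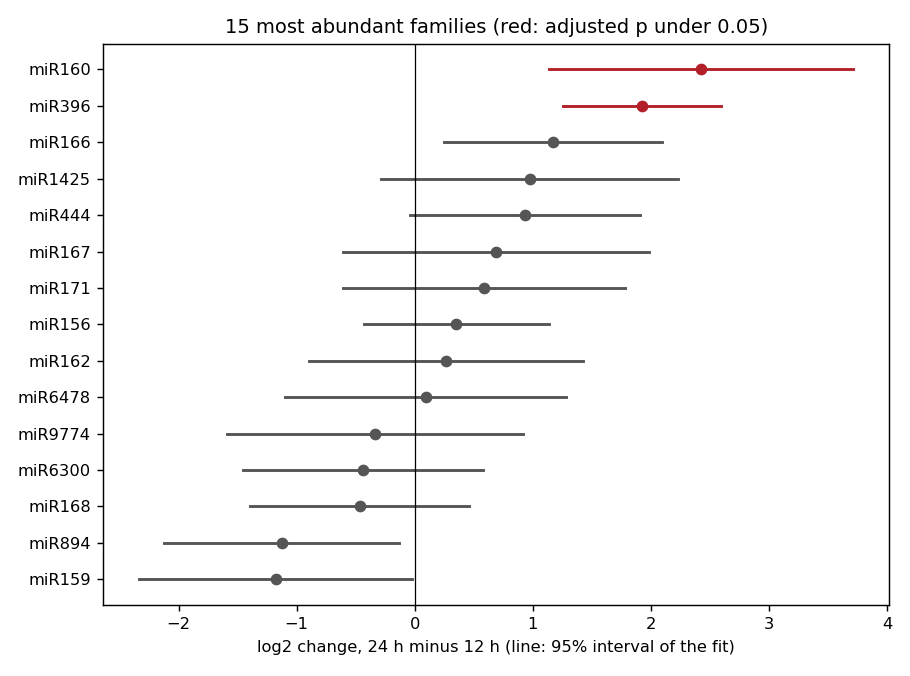
Fitted log2 change of 24 h minus 12 h (x axis) for the 15 most abundant families, with 95% intervals as lines. The intervals of miR160 and miR396, in red, passed the adjusted threshold and lie wholly above 1; the other 13 did not pass.

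The miR396 family took up the largest share of the listed reads at 24 h. Its level was 210280 and 98388 CPM at 12 h and 655106 and 517647 CPM at 24 h, from 57416 and 67849 CPM at 0 h. Both 24 h libraries lay well above both 12 h libraries, and these above both unheated ones. The family rose by 1.93 ± 0.32 on the log2 scale from 12 h to 24 h, a 3.80-fold increase (95% interval 2.39 to 6.04; adjusted p = 0.000785, edgeR quasi-likelihood test). As a share of all listed reads it went from 25.8% and 11.7% to 48.3% and 39.7%. It had also risen from 0 h to 12 h, by 1.30 on the log2 scale (adjusted p = 0.016, edgeR quasi-likelihood test). That earlier call was lost with DESeq2, limma-voom, DESeq2's size factors and the authors' constants. It was also lost with no filter, a filter of 50 reads, or without sequences ending in CCA. The difference between the later and the earlier step was 0.62 ± 0.55, which did not pass. The SE of the 24 h minus 12 h difference also moved with the fit, so the interval above is that of the main fit. Against 0.32 it was 0.55 with DESeq2's size factors, 0.58 with the 12 h and 24 h libraries only and 0.66 with DESeq2. With limma-voom the SE was 0.39 and with unrounded reads 0.33.

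Most of the miR396 rise lay in one sequence. The level of osa-miR396e-5p, with the seed CCACAGG, was 222143 and 66337 CPM at 12 h and 669489 and 424802 CPM at 24 h. It supplied 86.5% and 84.2% of the family's reads at 12 h and 96.2% and 87.4% at 24 h. Its own difference of 1.92 ± 0.86 did not pass (adjusted p = 0.502, edgeR quasi-likelihood test); its SE was wider than the 0.32 of the family sum. The next member, osa-miR396c-5p, with the other seed, had 29435 and 8650 CPM at 12 h and 17743 and 54754 CPM at 24 h, so its groups overlapped. Of the 10 tested members, 7 had a positive difference, and in 5 both 24 h libraries lay above both 12 h libraries. Among those 5, osa-miR396a-5p went from 1544 and 715 CPM to 3401 and 2073 CPM (log2 difference 1.23), and osa-miR396d, which had 0 and 9.57 CPM at 0 h, had 52 and 0.5 reads at 12 h and 75.5 and 66.5 at 24 h. No member had both 24 h libraries below. Some other members, such as bdi-miR396e-5p_R+1 (log2 difference -0.01) and osa-miR396c-3p_L-1R+1 (-0.06), the latter from the opposite arm of its precursor, had differences near 0.

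**Figure D2:**
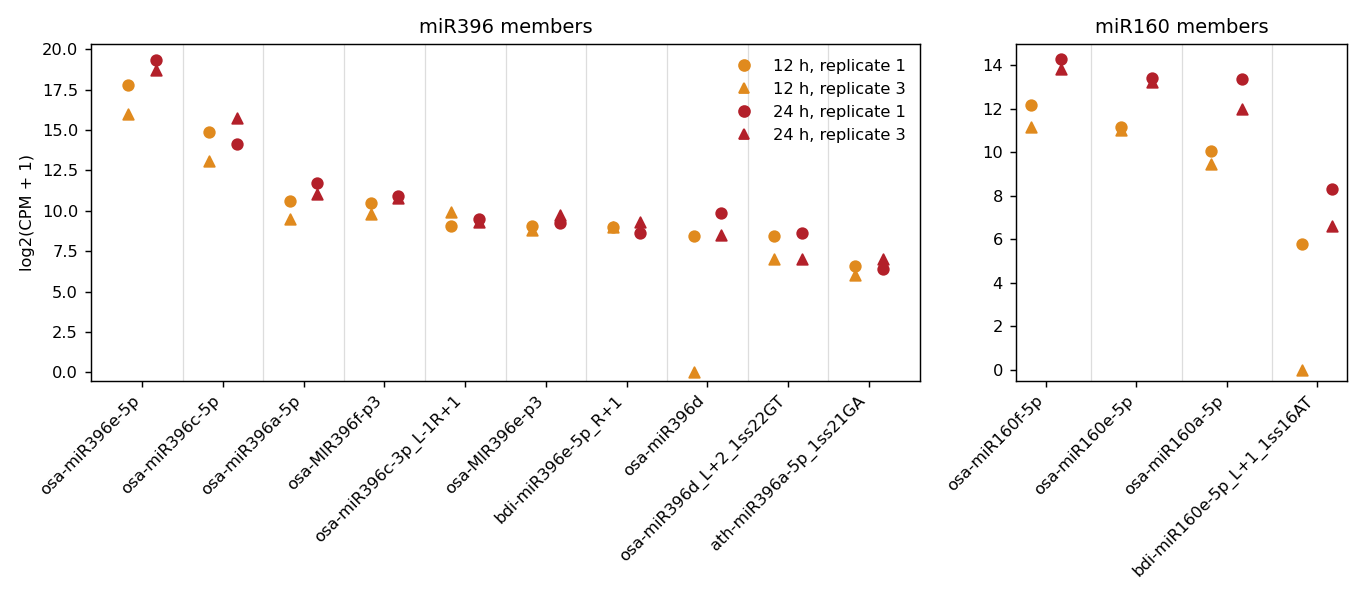
Level of each tested miR396 and miR160 member as log2(CPM + 1) in the 12 h libraries (orange) and 24 h libraries (red), circles for replicate 1 and triangles for replicate 3. All 4 miR160 members have both red points above both orange ones, as do 5 of the 10 miR396 members; points at 0 in 12 h replicate 3 are sequences with 0.5 divided reads, rounded to 0.

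The miR160 family moved in the later step. Its level was 6645 and 6342 CPM at 12 h, close together, and 39313 and 30569 CPM at 24 h, while the unheated libraries had 7208 and 12413 CPM. The family rose by 2.43 ± 0.62 on the log2 scale, 5.38-fold (95% interval 2.20 to 13.1; adjusted p = 0.0489, edgeR quasi-likelihood test). From 0 h to 12 h its difference was -0.60 (adjusted p = 0.684), and the difference between the 2 steps, 3.02 ± 1.10, had an unadjusted p of 0.012 but did not pass over all families. The family made up 0.815% and 0.760% of listed reads at 12 h and 2.90% and 2.34% at 24 h.

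All 4 miR160 members had positive differences at an unadjusted p under 0.05, and in each both 24 h libraries lay above both 12 h libraries. The one that passed on its own, osa-miR160a-5p, had 1063 and 715 CPM at 12 h and 10506 and 4059 CPM at 24 h, from 157 and 10.9 reads to 871 and 756 reads. It rose by 3.00 ± 0.77 on the log2 scale (adjusted p = 0.048, edgeR quasi-likelihood test). The level of osa-miR160f-5p, the most abundant member, went from 4672 and 2276 CPM to 19830 and 14793 CPM, a log2 difference of 2.30. That of osa-miR160e-5p went from 2329 and 2081 CPM to 11097 and 9757 CPM, a difference of 2.24, and the 22 nt bdi-miR160e-5p_L+1_1ss16AT from 8 and 0.5 reads to 26 and 17.5 reads. Both osa-miR160e-5p and osa-miR160f-5p differ from osa-miR160a-5p by 1 base. A read that fits several positions was divided among them, so the members are not independent measures. The share of osa-miR160a-5p within the family was 13.1% and 14.0% at 12 h and 25.2% and 14.1% at 24 h, so the 24 h libraries did not both differ from the 12 h ones in this mix.

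Both family results kept their direction in all 17 alternative fits but not their call; besides the fits that left out a library, each passed in 3 of 11. Both passed with limma-voom and with unrounded reads, miR396 but not miR160 with the replicate block (adjusted p = 2.46e-07 and 0.104, edgeR quasi-likelihood test), and miR160 but not miR396 with DESeq2 (adjusted p = 0.0078 and 0.263). The miR396 difference passed in 4 of 6 fits that left out 1 library (range 1.23 to 2.72) and failed without 0 h replicate 3 (1.85, adjusted p = 0.0597) and without 12 h replicate 3 (1.23, adjusted p = 0.622). The miR160 difference passed in 1 of 6 (range 2.14 to 2.61), the fit without 24 h replicate 3, and failed without 0 h replicate 1 (adjusted p = 0.0938), 0 h replicate 3 (0.0891), 12 h replicate 1 (0.0645), 12 h replicate 3 (0.594) or 24 h replicate 1 (0.139). All of these are edgeR quasi-likelihood tests. Where 1 library is left out its time point has a lone sample, which is assumed to vary like the other groups.

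**Figure D3:**
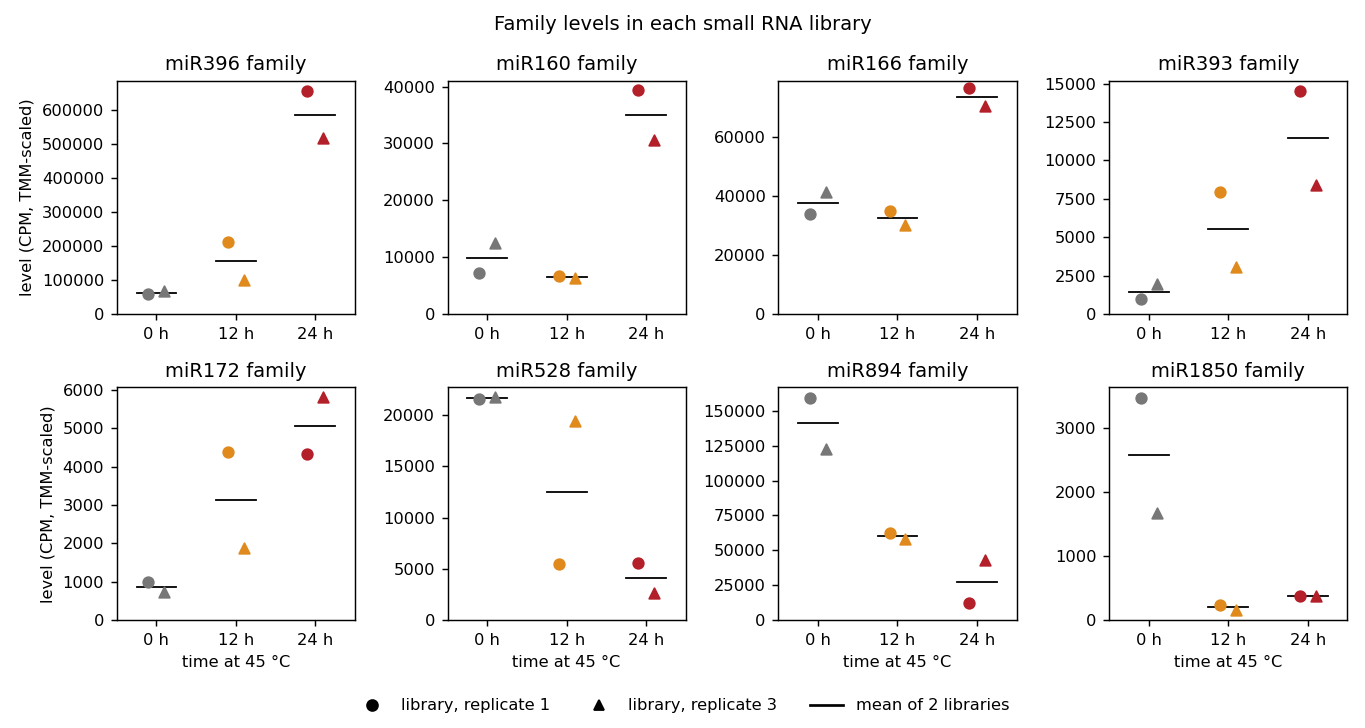
Level (CPM after TMM scaling) of 8 families in each small RNA library at 0 h, 12 h and 24 h, circles for replicate 1, triangles for replicate 3, and the mean of the 2 libraries as a line. The miR160 points at 24 h (39313 and 30569 CPM) stand above both earlier times, while the miR1850 points are low at both 12 h and 24 h.

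The other families under an unadjusted p of 0.05 did not pass over all families and are given as values. They were chosen after their values were seen. Among the higher ones, miR166, which acts on class III homeodomain-leucine zipper genes of leaf polarity, had 34942 and 30330 CPM at 12 h and 76821 and 70585 CPM at 24 h (log2 difference 1.17 ± 0.44, adjusted p = 0.375, edgeR quasi-likelihood test). Its groups stood apart, as did those of miR2118, with 1074 ± 369 CPM at 12 h and 4179 ± 3276 CPM at 24 h (SD, n = 2; log2 difference 1.92 ± 0.86). miR2118 is known as the trigger of phased small RNAs in rice panicles. Its 3 tested sequences made up 0.164% and 0.102% of listed reads at 12 h and 0.138% and 0.498% at 24 h. These shares overlapped, with 24 h replicate 3 the highest. Over the 3 sequences the median log2 difference was 0.06, and 1 had both 24 h libraries above both 12 h libraries.

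Among the 5 lower families, miR159, which acts on GAMYB-type transcription factors, had 26441 and 30574 CPM at 12 h and 12256 and 12906 CPM at 24 h (log2 difference -1.18 ± 0.56, adjusted p = 0.57, edgeR quasi-likelihood test). The 24 h libraries agreed closely with each other and lay below both 12 h libraries. miR894 had 62142 and 58464 CPM at 12 h and 12131 and 43029 CPM at 24 h (-1.13 ± 0.48), and miR1320 956 ± 718 CPM and 159 ± 177 CPM (SD, n = 2; -2.52 ± 0.91). For miR528 (5525 and 19434 CPM, then 5589 and 2625 CPM) and miR5139 (66.5 and 1057 CPM, then 34.1 and 80.1 CPM) the groups overlapped, since only the shallow 12 h library was high. Without 12 h replicate 1, miR1320 and miR5139 passed downwards; without 24 h replicate 1, miR1320 and miR1432 did; and without 24 h replicate 3, miR6232 and miR894 did (for miR894 adjusted p = 0.000271, edgeR quasi-likelihood test).

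Over all families both 24 h libraries lay above both 12 h libraries in 24 (19.4%) and below in 17 (13.7%), and over all sequences in 88 (19.2%) and 74 (16.1%). The median log2 difference was 0.01 over sequences and 0.05 over families. Against this background the auxin list (miR160, miR167, miR390 and miR393) had 18 of 23 tested sequences positive, with a median of 0.83. In 11 both 24 h libraries lay above and in 0 below, and 4 of these 11 are the miR160 members given above. At an unadjusted p under 0.05, 6 were higher and 1 lower, and osa-miR160a-5p alone passed. The list's second most abundant member, osa-miR167d-5p_R+1 of the family that acts on activating auxin response factors, had 8139 and 4032 CPM at 12 h and 4403 and 10879 CPM at 24 h, which overlap. The median of the list was 0.43 without 12 h replicate 3 and 1.18 without 12 h replicate 1. For all tested sequences it was 0.06 (459 sequences) and 0.26 (413 sequences) in these fits. These medians are also the background for the same fits of the lists and classes below.

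The copper list (miR397, miR398, miR408 and miR528, which act on copper proteins such as laccases and plantacyanins) had 9 of 10 sequences negative, 6 with both 24 h libraries below and 0 above, and a median of -1.05. None of the 10 passed, nor was any under an unadjusted p of 0.05. Its most abundant member osa-miR528-5p had 6534 and 15284 CPM at 12 h and 5826 and 2277 CPM at 24 h (log2 difference -1.42 ± 0.73), and osa-miR408-3p had 2323 and 11967 CPM, then 2388 and 5665 CPM. In both, 12 h replicate 3 was the highest of the 4 libraries, and the list's median was -0.41 without that library and -1.46 without 12 h replicate 1.

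No sequence passed in the leaf development, miR444, nutrient, phase transition, small RNA machinery or restricted lists. Of the 55 leaf development sequences (miR159, miR164, miR166, miR171, miR319, miR396), 41 were positive, 24 had both 24 h libraries above and 5 below, and the median was 0.60. At an unadjusted p under 0.05, 3 of them were higher and 5 lower at 24 h. The 16 sequences of miR444, which acts on MADS-box genes in grasses, had 13 positive, 9 above, 0 below and a median of 0.96; the leading one, osa-miR444f_1ss12CT, went from 35509 and 17170 CPM to 39503 and 56472 CPM (0.86 ± 0.75). Several of the miR444 sequences hold identical values in all 6 libraries and are not separate evidence. The nutrient list held 5 families, of which miR395, miR399 and miR2111 had no tested sequence; its 19 tested sequences, 18 of miR169 and 1 of miR827, had 15 positive differences and a median of 0.71, which was 0.15 without 12 h replicate 3 and 2.63 without 12 h replicate 1. In it osa-miR827, of a family that acts on phosphate transporter genes, had 663 and 10047 CPM at 24 h around 2417 and 520 CPM at 12 h, so the 24 h libraries themselves disagreed.

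The phase transition list (miR156, miR172, miR529, miR535) had 18 of 28 positive and a median of 0.39, and its leading member osa-miR156a_L+1 went from 65825 and 24519 CPM to 62783 and 55560 CPM. The small RNA machinery list (miR162, which acts on DICER-LIKE1, and miR168, which acts on ARGONAUTE1) had 4 of 7 positive and a median of 0.23. In it osa-miR168a-5p had 64694 and 16975 CPM at 12 h and 18081 and 18864 CPM at 24 h. The 21 tested sequences of families restricted to rice or monocots had 10 positive and a median of -0.06; osa-miR1425-5p among them went from 22386 and 7609 CPM to 23786 and 29742 CPM.

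Sequence classes differed in their medians. The 157 tested sequences of 23 or 24 nt had 53 positive and 104 negative differences, 9 above and 40 below, and a median of -0.23, and the 65 tested new candidates had 23 positive, 42 negative and the same median to 2 decimals. The share of listed reads of 24 nt was 8.52% and 21.1% at 12 h and 9.63% and 5.70% at 24 h. That of 21 nt reads starting with T was 64.9% and 41.5%, then 75.2% and 73.9%. For the 23 or 24 nt class the median was 0.04 without 12 h replicate 3 and -0.59 without 12 h replicate 1, so its sign rested on the shallow library. For the new candidates it was -0.33 without 12 h replicate 3 and -0.04 without 12 h replicate 1. The 30 sequences ending in CCA had 13 positive, 17 negative and a median of -0.25, with osa-miR160a-5p the 1 that passed. The median of this class was -0.03 without 12 h replicate 3 and 0.46 without 12 h replicate 1, so its sign depended on the 12 h libraries.

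The earlier step, 12 h against 0 h, uses the same 12 h libraries, so its values are set beside the later ones and not compared by overlap. In it 4 families passed (3.23%), miR396 upwards and miR1850, miR2606 and miR5073 downwards, and 15 sequences (3.27%), 2 upwards and 13 downwards. The upward miR396 call was lost in the settings named for it above. At 24 h against 0 h, 18 families (14.5%) and 44 sequences (9.59%) passed. The 12 h against 0 h families that passed were 0 without 12 h replicate 1, 13 without 12 h replicate 3, 1 without 0 h replicate 1 and 1 without 0 h replicate 3, and 6 and 7 in the fits lacking 24 h replicate 1 or 24 h replicate 3. For 24 h against 0 h they were 5 without 0 h replicate 1 and 6 without 0 h replicate 3.

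The 3 families that fell in the earlier step had low levels at both times in heat. The level of miR1850 was 3464 and 1678 CPM in unheated leaves, 244 and 163 CPM after 12 h, and 386 and 377 CPM after 24 h. It fell by 3.54 on the log2 scale from 0 h to 12 h (adjusted p = 0.016, edgeR quasi-likelihood test), and its later difference was 0.80 ± 0.78. Its 163 CPM in 12 h replicate 3 stood for 2 reads, under the floor of 3. The level of miR5073 was 894 and 1481 CPM at 0 h, and only 4 and 2 reads at 12 h and 3 and 7 at 24 h. Its earlier difference was -4.81 and its later one -0.14 ± 1.13. The level of miR2606 was 279 and 1894 CPM at 0 h and 1.5 reads in each 12 h library, under the floor of 3, then 1.5 and 18.5 reads at 24 h. For both of these families the reads after heat are too few for the later difference to be read as a level that held.

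Among the 13 sequences that fell by 12 h, the later differences lay on both sides of 0. The level of osa-miR528-3p was 3424 and 823 CPM in unheated leaves, then 217 and 260 CPM, then 109 and 188 CPM (later difference -0.61 ± 0.79). That of osa-miR166d-5p, from the arm opposite the abundant miR166 strand, was 680 and 1215 CPM, then 102 and 65 CPM, then 121 and 188 CPM (0.75 ± 0.87). In gma-miR6300 it was 3136 and 14275 CPM, then 1673 and 1431 CPM, then 1399 and 2169 CPM (0.20 ± 0.72). In all 3, both libraries of each time in heat lay below both unheated libraries, although for gma-miR6300 the lower unheated library was not far above them. In 12 h replicate 3 the value of osa-miR166d-5p lay under the floor of 3 reads (195 CPM), and that of osa-miR528-3p was near it. Of the 2 sequences that rose by 12 h, ghr-miR393_L+3R-1 was listed at 0 in both unheated libraries. It had 16.5 and 2 reads at 12 h and 17.5 and 9.5 at 24 h. The values of the other, osa-miR396d, are given above. Its rise rested on 12 h replicate 1, since 12 h replicate 3 held it under the floor of 3 reads and overlapped with the unheated libraries.

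**Figure D4:**
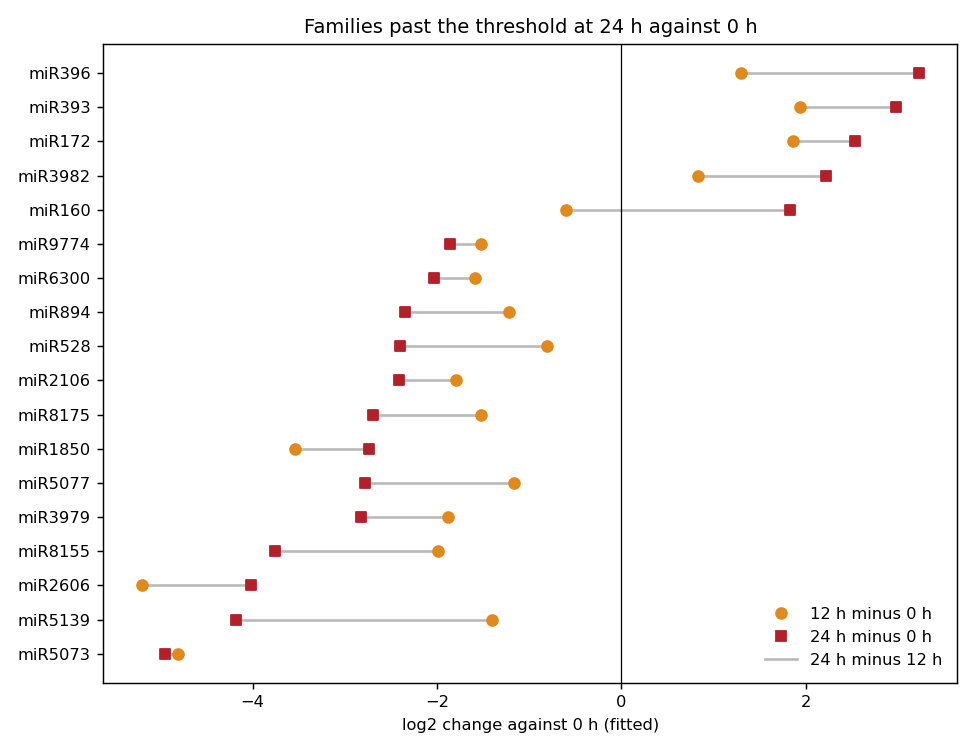
Fitted log2 change against 0 h at 12 h (orange circles) and at 24 h (red squares) for the 18 families past the threshold at 24 h against 0 h; the grey line is the later step. For miR5073 the points nearly coincide, while for miR160 the 12 h point is at -0.60 and the 24 h point at 1.83.

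For the 18 families past the threshold at 24 h against 0 h, the part of the fitted log2 change already present at 12 h ran from -32.5% for miR160 to 129% for miR2606 and miR1850. These shares share libraries with the call and are a description. In miR172, which acts on AP2-like genes, it was 73.5%: the level was 1006 and 741 CPM in unheated leaves, 4373 and 1870 CPM after 12 h, and 4316 and 5804 CPM after 24 h. In miR393, which acts on auxin receptor F-box genes, it was 65.2%, with 950 and 1931 CPM, then 7947 and 3090 CPM, then 14494 and 8411 CPM. In both the 12 h libraries lay above the unheated ones, and the 24 h libraries stood apart from the 12 h ones in miR393 but overlapped with them in miR172. In miR9774 it was 82.0% and in miR6300 78.3%, whereas in miR528 it was 33.5% and in miR5139 33.6%. For miR894 it was 52.0%, with the level of its leading sequence ppt-miR894_R+1 at 127417 and 102229 CPM, then 53819 and 40323 CPM, then 7298 and 22622 CPM. The authors' list gives ppt-miR894_R+1, which ends in CCA, no precursor position.

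A level that had settled by 12 h could not be shown for any member. The number of 95% intervals of the 24 h minus 12 h difference that lay within 1 log2 unit of 0 was 0 of 459 for sequences and 0 of 124 for families. On either side of the estimate the interval reached 0.67 for miR396, the narrowest among families, and in the median 1.56 for families and 1.59 for sequences. Within 2 log2 units of 0 lay the intervals of 171 sequences and 43 families. Among the abundant families the intervals nearest to 0 were those of miR156 (-0.43 to 1.13), with 76723 and 72287 CPM at 12 h and 94757 and 95573 CPM at 24 h, and miR6478 (-1.10 to 1.28).

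The test of the later step against the earlier one passed for 1 sequence (0.218%), gma-MIR6300-p3_1ss8AG, with 30 at an unadjusted p under 0.05 (6.54%), and for 0 families (0%), with 6 at an unadjusted p under 0.05 (4.84%) in edgeR, 8 in DESeq2 and 5 in limma-voom. DESeq2 and limma-voom also called 0 families. The sequence had 4.5 and 114.5 reads in the unheated leaves, then 3.5 and 0 in the 12 h libraries and 14.5 and 50.5 in those of 24 h, so its level at 12 h rests on reads near the floor. Its later difference on its own was 3.19 ± 1.05 and did not pass (adjusted p = 0.166, edgeR quasi-likelihood test).

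The degradome had 1 library per time point, with 10117186, 8834950 and 10822443 transcript-mapped reads at 0 h, 12 h and 24 h. No test is possible, and the exact Poisson intervals cover counting error only. At the miR160 site of LOC_Os06g47150, annotated as an auxin response factor, there were 892, 321 and 759 reads at 0 h, 12 h and 24 h. That is 36.3 RPM (reads per 1000000 transcript-mapped reads) at 12 h (95% interval 32.5 to 40.5) and 70.1 at 24 h (65.2 to 75.3). Another 3 loci with the same annotation had 95 and 139 reads (LOC_Os10g33940), 87 and 148 reads (LOC_Os02g41800) and 15 and 20 reads (LOC_Os04g43910) at 12 h and 24 h. Summed over the 5 miR160 loci with sites in categories 0 to 2 (the authors' score, with 0 the best supported), the values were 161, 58.6 and 98.6 RPM. The intervals of the first locus stood apart between 12 h and 24 h, while those of the other 3 loci overlapped.

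**Figure D5:**
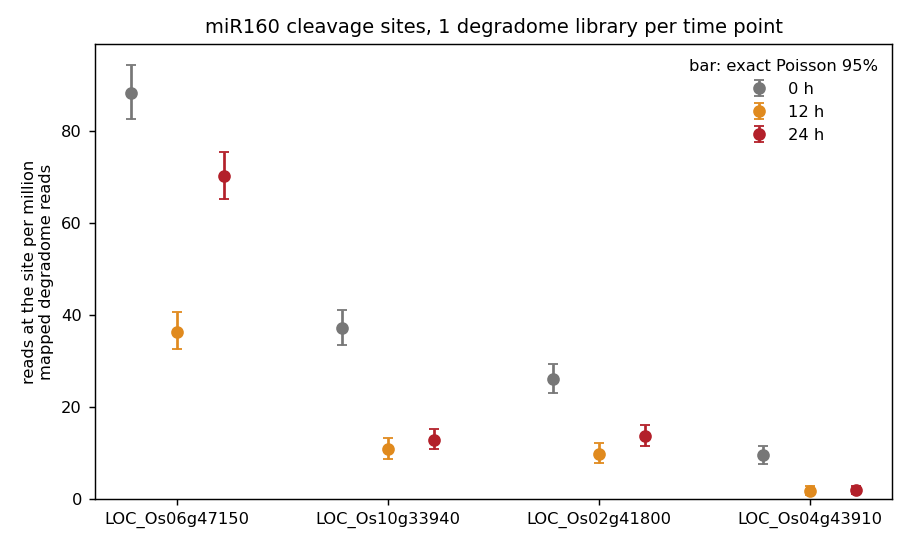
Degradome reads at the miR160 sites of 4 loci annotated as auxin response factors, in reads per 1000000 transcript-mapped reads (RPM), at 0 h (grey), 12 h (orange) and 24 h (red), with exact Poisson 95% intervals. At LOC_Os06g47150 the 12 h value is 36.3 and the 24 h value 70.1; all 4 loci are lower at 12 h than at 0 h.

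The 9 miR396 loci with such sites, mostly annotated as growth-regulating factors, had 57, 12 and 11 reads in all (5.63, 1.36 and 1.02 RPM), too few to separate 24 h from 12 h. Of the further 13 families among the 15 most abundant, those with over 20 reads at 24 h are given first. The sums in RPM at 12 h and 24 h were 7.81 and 15.2 for miR166, 12.9 and 19.9 for miR171, 0.792 and 6.47 for miR1425, and 5.09 and 7.85 for miR159. For miR156 they were 3.28 and 3.70, and for miR444 14.9 and 9.61. In miR162, miR167, miR894, miR6300, miR6478 and miR9774 the reads were fewer at 24 h, 4 to 8 at 12 h against 0 to 3, too few to separate the times. For miR168 no site was listed. At LOC_Os10g33960, a homeobox-leucine zipper gene listed for miR166, the reads were 31 and 72, and at LOC_Os01g59660, a MYB gene listed for miR159, 35 and 53. LOC_Os03g01890, also listed for miR166, had the same 31 and 72 reads. The miR159 loci LOC_Os01g12700 and LOC_Os05g41166 both had 0 and 14. Whether the same reads are listed at both loci of such a pair was not tested, so the sums may not add separate reads. Fewer degradome reads can come from less target RNA as well as from less cleavage, and the 2 cannot be told apart here.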

How the data were processed

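Small RNA of 15 to 30 nt was sequenced, per the labels, from 2 leaf samples per time point, and 1 degradome library per time point. The authors deposited estimated counts per mature sequence, in which a read that matches several positions is divided among them, and a signal that is this count times 1 constant per library. They also deposited a p-value of an analysis of variance, not used here, the percent of reads in each read class per time point, not used for a comparison, degradome read counts, and a category score from 0 to 4 per cleavage site. The sources used here do not name the aligner, miRNA release, target finder or genome build. The 588 entries were reduced to 483 distinct sequences; counts were rounded, where whole counts had been planned for. Sequences and family sums with at least 10 reads in at least 2 of 6 libraries were tested with edgeR 4.0.16 (TMM, quasi-likelihood, R 4.3.3), with time as the sole term and p-values adjusted by Benjamini-Hochberg at 0.05. The SE is the log2 difference over the square root of F. The contrasts were 24 h minus 12 h, 12 h minus 0 h, 24 h minus 0 h, and the later minus the earlier step. The script was tested on simulated data. Alternatives were DESeq2 1.42.0, limma-voom (limma 3.58.1), 3 other scalings, 2 other filters, the 12 h and 24 h libraries alone, unrounded reads, a replicate block, no sequences ending in CCA, and each library left out. The text names, by rule, sequences and families past a threshold, the 15 most abundant families, the 2 most abundant members of each list, and, added later, the other families under an unadjusted p of 0.05, those past the threshold at 24 h against 0 h, and the members of miR396 and miR160. The members and lists were chosen with earlier results of these data known. Depth ran from 10314 to 227965 listed reads, and the floors and the degradome's Poisson intervals cover counting error only. The intervals of fitted differences come from edgeR's dispersion between libraries. The fit moderates it over all tested sequences or families, so it is not the spread of a single member alone. No sample was left out.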

Additional observations from a re-analysis of the deposited data

Results flagged for a closer look

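The later step differed from the earlier one for 1 sequence, gma-MIR6300-p3_1ss8AG, in the test of that difference. Its later minus earlier step was 7.87 ± 1.99 on the log2 scale (adjusted p = 0.0386, edgeR quasi-likelihood test). Its level was 105 and 1091 CPM in unheated leaves, 27.1 and 0 CPM after 12 h and 169 and 268 CPM after 24 h, and the 12 h libraries held 3.5 and 0 reads of it, so the fitted size is no bound.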

How the results depend on the processing

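The calls moved with the processing; the cause was not tested. For 24 h against 12 h the main count of families was 2. It was 0 with DESeq2's size factors, the authors' constants, totals without the 3 most abundant sequences, no filter, a filter of 50 reads, the 12 h and 24 h libraries only, or without sequences ending in CCA (which removes osa-miR160a-5p and osa-miR160f-5p by construction), 1 with DESeq2 (miR160) and with the replicate block (miR396), 2 with limma-voom and unrounded reads, and 0 to 4 with a library left out (0 without 0 h replicate 3 or 12 h replicate 3, 1 without 0 h replicate 1, 3 without 12 h replicate 1 or 24 h replicate 1, and 4 without 24 h replicate 3). The main count of sequences was 1, and stayed 1 with the authors' constants and DESeq2. It was 0 with the replicate block and under the other 8 settings, and 0 to 3 with a library left out, where 6 calls in other sequences included 5 downward ones (3 without 24 h replicate 1, 2 without 12 h replicate 1). Same-numbered libraries' deviations correlated at -0.16, 0.10 and -0.13 over sequences, which are not independent. With 2 libraries per time point and the shallow 12 h replicate 3, these values cannot show whether the replicate numbers pair the samples. Settings for the comparisons with 0 h were chosen after seeing the data. For 12 h against 0 h the 15 sequences became 4 (totals), 0 (50 reads; 25 at an unadjusted p under 0.05), 5 (limma-voom) and 7 (replicate block), 0 to 15 with a library left out, and the 4 families 1 (50 reads), 0 to 13. For 24 h against 0 h the 44 sequences became 28 (authors' constants), 12 (50 reads) and 29 (replicate block), 8 to 58, and the 18 families 11 (authors' constants), 5 to 23. The 1 sequence of the step test remained 1 with no filter or without CCA ends and became 0 under the other 8 settings, the replicate block included, and 0 to 2 with a library left out; families were 0 under every setting and 0 to 2. The intervals within 1 log2 unit were 1 sequence without CCA ends, 0 to 1, and otherwise 0. The median log2 difference of all sequences was 0.28 with the authors' constants and -0.19 with the totals, against 0.01. Of the 79 named sequences and families 33 changed sign in at least 1 setting, none of them past the threshold there. Signs changed with the totals for ghr-miR393_L+3R-1 (-0.022), gma-miR6300 (-0.056), miR6478 (-0.087), osa-miR168a-3p (-0.085), osa-miR2118o_1ss1CT (-0.22) and PC-3p-38054_125 (-0.13). They changed with the authors' constants for osa-MIR169a-p5 (0.15), osa-miR1862d (0.086), ppt-miR894_L-3R+1 (0.028), bdi-miR396e-5p_R+1 (0.28), osa-miR396c-3p_L-1R+1 (0.19) and osa-miR396d_L+2_1ss22GT (0.078). With limma-voom they changed for ghr-miR393_L+3R-1 (-0.32), miR6300 (0.11), osa-MIR169a-p5 (0.036), osa-miR2118o_1ss1CT (-0.17) and osa-miR396c-3p_L-1R+1 (0.011). For osa-miR2118o_1ss1CT it was -0.031 with 50 reads and -0.18 with the replicate block, which gave osa-miR396d_L+2_1ss22GT 0.052. For bdi-miR396e-5p_R+1 it was 0.070 with DESeq2 and 0.069 with its size factors, 0.0013 with 12 h and 24 h only, 0.019 with no filter and 0.0057 unrounded. With a library left out, the ranges that crossed 0 were ghr-miR393_L+3R-1 (-1.02 to 0.90), gma-miR6300 (-0.20 to 0.49), mtr-MIR2606c-p3_2ss8TG18GA (-1.03 to 2.19), osa-MIR1850-p3_1ss8TG (-0.48 to 5.36), osa-miR1850.1 (-0.32 to 1.33), osa-miR5073_R+1_1ss20AT (-1.85 to 0.44), miR2606 (-1.08 to 2.26), miR5073 (-1.92 to 0.48), miR6300 (-0.89 to 0.35), miR162 (-0.47 to 0.74), miR6478 (-0.17 to 0.41), miR9774 (-1.30 to 0.19), miR167 (-0.32 to 1.23), osa-miR167d-5p_R+1 (-0.51 to 0.85), osa-miR408-3p (-1.64 to 0.80), osa-miR827 (-1.25 to 3.31), osa-MIR169a-p5 (-0.62 to 1.03), osa-miR156a_L+1 (-0.15 to 1.19), osa-miR156a (-0.012 to 1.02), osa-miR168a-3p (-1.05 to 1.09), osa-miR168a-5p (-1.81 to 0.043), osa-miR1862d (-0.85 to 0.34), osa-miR2118o_1ss1CT (-0.91 to 0.54), ppt-miR894_L-3R+1 (-1.39 to 0.79), PC-3p-38054_125 (-0.52 to 0.54), PC-3p-53246_81 (-0.24 to 3.35), miR172 (-0.051 to 1.59), miR2106 (-1.89 to 0.19), miR3979 (-2.65 to 5.72), bdi-miR396e-5p_R+1 (-0.46 to 0.31), osa-miR396c-3p_L-1R+1 (-0.59 to 0.39), osa-miR396c-5p (-0.14 to 2.00) and osa-miR396d_L+2_1ss22GT (-1.05 to 0.85).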
